A study of Mus musculus with 7 samples.

Results

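Connexins were followed in mouse embryonic fibroblasts (MEFs) lacking the tumour suppressor p53, with or without Dnmt1, the enzyme that copies DNA methylation at replication. The genes were Gja1, Gjc1, Gjb2 and Gjb5, and every probe set annotated to them was taken, 9 of the 22690 on the array. They are 4 of the 12394 genes named there. Gja1 had 6 probe sets and each of the other 3 genes had 1. The genes were chosen by their signals on these same arrays, from a family of connexins, and which of the comparisons led to the choice is not recorded. All of their levels and differences are therefore given as a description, with no test.

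RNA was profiled on 7 Affymetrix arrays, 1 for each group. The p53-/- Dnmt1-/- MEFs were measured untreated, at 24 h and 48 h of exposure to TSA (trichostatin A, which inhibits histone deacetylases), and 2 weeks after TSA was removed. The p53-/- MEFs were measured untreated and at the same 24 h and 48 h of exposure. All cells lacked p53, so no array shows connexins in cells with p53. The dose of TSA, the length of exposure before its removal, and whether arrays of a genotype came from separate cultures are unstated in the labels. Genotype and culture cannot be told apart.

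Connexins are the subunits of gap junctions, channels that join the cytoplasm of neighbouring cells and pass ions, second messengers and small metabolites. Connexins assemble into a half-channel in one cell, which docks with a half-channel of its neighbour. Which connexins a cell makes sets which neighbours it can couple to and what passes. Gja1 encodes Cx43, the main connexin of fibroblasts and of many other tissues. Gjc1 encodes Cx45, a connexin of early heart and of smooth muscle. Gjb2 encodes Cx26, found in epithelia such as the inner ear, liver and epidermis. Gjb5 encodes Cx31.1, best known in mouse stratified epithelia and placenta.

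Promoter sequence is shown because the study removed a DNA methyltransferase, whose target is the cytosine of CpG dinucleotides, and the connexins differ in how many CpGs lie upstream of their start. The RefSeq promoter table for build GRCm38.p6 held 3 of the 4 genes, Gjb2, Gjb5 and Gja1. The 250 bases before each annotated start are given 5′ to 3′ on the gene's strand, with CpGs in capitals. The Gjb2 window lies at chr14:57104703-57104952 (minus strand), the Gjb5 window at chr4:127358165-127358414 (minus strand) and the Gja1 window at chr10:56377050-56377299 (plus strand).
Gjb2: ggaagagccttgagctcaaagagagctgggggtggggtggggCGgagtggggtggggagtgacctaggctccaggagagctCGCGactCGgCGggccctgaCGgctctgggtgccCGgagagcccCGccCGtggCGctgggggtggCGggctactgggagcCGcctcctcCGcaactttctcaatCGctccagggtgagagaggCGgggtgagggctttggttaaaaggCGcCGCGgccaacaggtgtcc
Gjb5: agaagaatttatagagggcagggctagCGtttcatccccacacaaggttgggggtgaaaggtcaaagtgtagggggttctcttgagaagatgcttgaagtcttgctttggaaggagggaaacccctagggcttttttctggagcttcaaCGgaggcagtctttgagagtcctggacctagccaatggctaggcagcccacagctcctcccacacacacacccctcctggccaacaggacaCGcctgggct
Gja1: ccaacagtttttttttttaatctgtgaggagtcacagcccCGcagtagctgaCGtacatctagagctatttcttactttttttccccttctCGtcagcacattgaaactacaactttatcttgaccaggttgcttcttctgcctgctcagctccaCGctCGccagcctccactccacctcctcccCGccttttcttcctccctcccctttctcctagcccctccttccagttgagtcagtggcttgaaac

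The Gjb2 window held 18 CpGs at a GC content of 69.2%, and 21.7% of 32841 RefSeq windows of this length held as many or more. The Gja1 window held 6 CpGs, the median of all windows, and the Gjb5 window held 3. The AP-1 motif TGANTCA, searched on both strands, occurred once in the Gja1 window, 19 bases before the start, and in neither of the other windows. It was present in 6.8% of all windows. The GC box GGGCGG, also searched on both strands, occurred at 2 places in the Gjb2 window, against a presence in 32.7% of all windows, and not in the Gja1 or Gjb5 windows. Methylation was not measured on these arrays, and a match of letters does not show that a factor binds.

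The values are linear MAS5 signals, a background-corrected brightness per probe set that the authors scaled to the same trimmed mean on every array. Differences are on the scale log2(signal + 11.4), where 11.4 is the pooled 25th percentile of signal. Because of this offset a difference with a dim side is understated. Signals of different probe sets are not compared with each other, since probes differ in brightness. In tests over all features, only features with a signal above 45.6, the pooled median, on 1 array or more were used, which gave 9390. All 4 genes passed, Gjb5 only through p53-/- Dnmt1-/- arrays and Gjb2 only through p53-/- arrays, so these genes had to differ between some arrays. Where the probes lie within each gene is unstated in the labels.

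Dnmt1 itself had signals of 206.5, 74.0 and 109.5 at 0, 24 and 48 h and 123.2 after TSA removal in p53-/- Dnmt1-/- cells, against 695.6, 384.4 and 308.2 at 0, 24 and 48 h in p53-/- cells. Its lower signal goes with the labels, though signal remained. The MEF label was set against markers. Of 14 fibroblast markers, 11 were lower and 1 was higher in p53-/- Dnmt1-/- cells (limma with Benjamini-Hochberg adjustment over all features, which called 19.4% of them higher and 19.4% lower), and their summed signal ranged from 9436 to 16784 there and from 31197 to 39496 in p53-/- cells. Of 10 markers of simple epithelium and mesothelium, 9 had a probe set and all 9 were called higher, with summed signals of 9706 to 17031 against 150.9 to 421.4. Of these 9, 7 passed the filter only through p53-/- Dnmt1-/- arrays, and 2 of the fibroblast markers only through p53-/- arrays, so those had to differ. Of 6 macrophage markers 3 passed and were called higher, Csf1r, Cd68 and Itgb2, beside 19.4% of all features. Itgb2 passed only through p53-/- Dnmt1-/- arrays. The 6 summed to 188.5 to 408.9 in p53-/- Dnmt1-/- cells against 96.8 to 142.0 in p53-/- cells. Ptprc and Itgam stayed at 11.9 or less on every array. Collagen and vimentin signal was present in both genotypes. Postn and Fap, the 2 that passed only through p53-/- arrays, were at 16.8 or less in p53-/- Dnmt1-/- cells. In p53-/- cells Postn was at 1175.8 or more and Fap at 25.5 or more. Dcn, the 1 marker called higher, was at 617.8 to 1611.5 in p53-/- Dnmt1-/- cells against 73.8 to 551.8. Which cells gave the collagen and vimentin signal in p53-/- Dnmt1-/- cells was not tested. In these bulk samples fewer cells of a type and less RNA per cell cannot be told apart.

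The 4 connexins had 4 different patterns. Gja1 was present on every array at a lower level in p53-/- Dnmt1-/- cells, and Gjc1 differed there by about -1 on the log2 scale at 0, 24 and 48 h. Gjb2 was high on a single array, that of untreated p53-/- cells, and was much lower after TSA. Gjb5 was seen in p53-/- Dnmt1-/- cells at 0, 24 and 48 h and was near the bottom of the scale 2 weeks after TSA and in all p53-/- arrays.

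**Figure D1:**
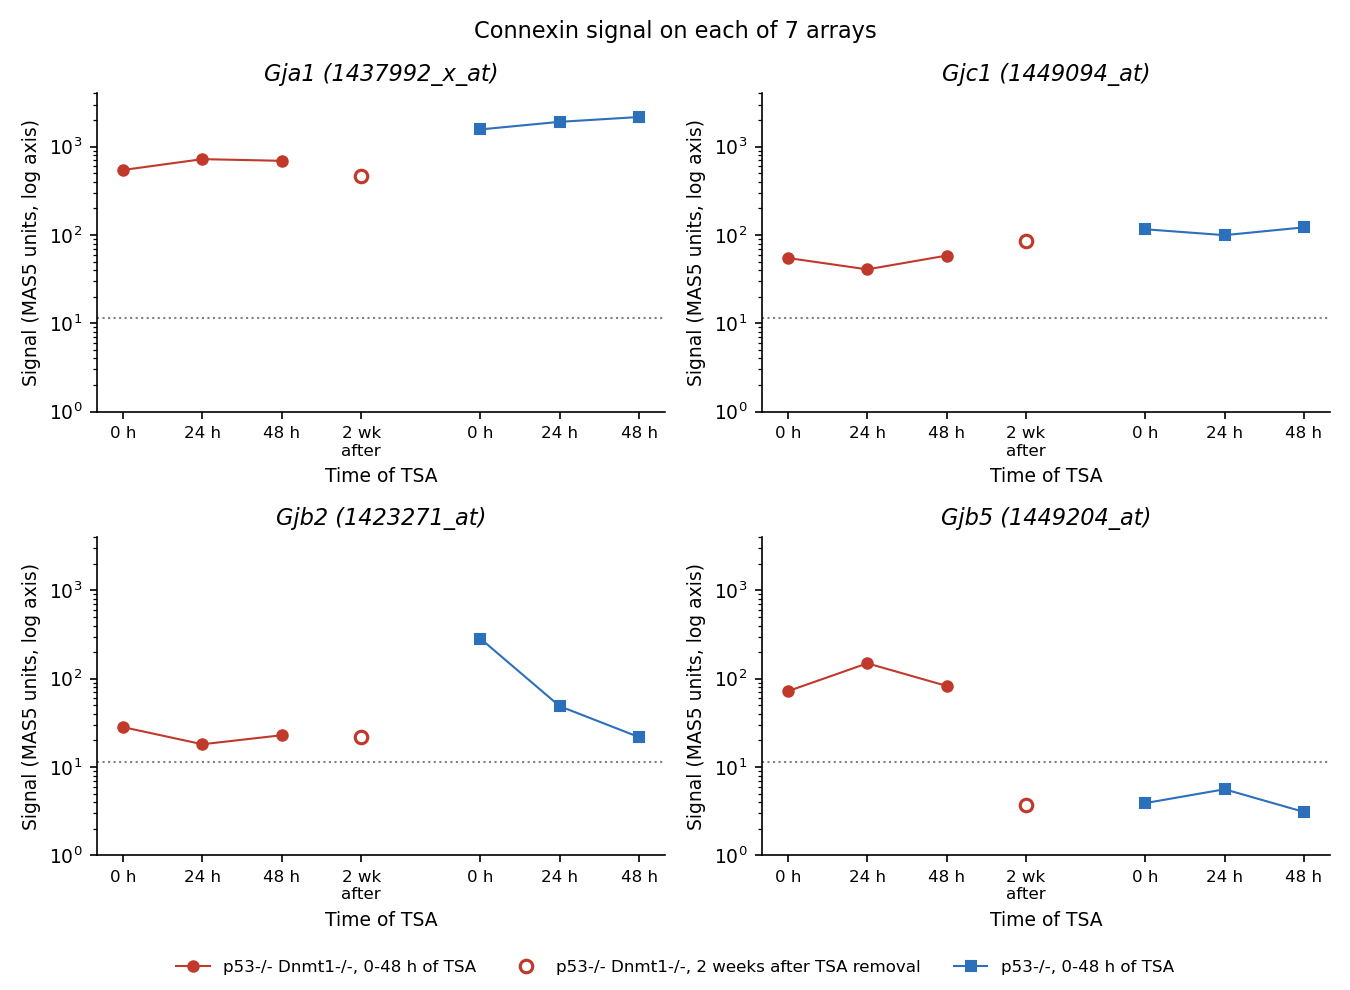
Signal of the probe set that represents each connexin gene on each of 7 arrays, on a log axis, with p53-/- Dnmt1-/- arrays (red, open circle 2 weeks after TSA removal) left of p53-/- arrays (blue). The dotted line marks the offset of 11.4; Gjb2 reached 285.1 on 1 array, and Gjb5 lay below the line on 4 of 7 arrays.

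Differences between genotypes are given for the connexins as means and SD over the 3 times, without a call, because the genes were chosen with these values known. Over all 9390 features limma called 19.4% higher and 19.4% lower in p53-/- Dnmt1-/- cells. Its model had a term for genotype and one for time, without the array after removal, so the 3 times stand in for replicates.

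Gja1 was represented by probe set 1437992_x_at, its brightest. Its signal was 544.3 untreated, 722.5 at 24 h, 691.6 at 48 h and 461.8 after TSA removal in p53-/- Dnmt1-/- cells, against 1567.6, 1911.0 and 2167.3 at 0, 24 and 48 h in p53-/- cells. The genotypes did not overlap, and 19% of all features were lower without overlap between the same arrays. The difference was -1.51 ± 0.12 on the log2 scale (SD over 3 times), and at the single times it was -1.51, -1.39 and -1.63.

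The 6 probe sets of Gja1 did not all read alike. The arrays separated by genotype without overlap for 5 of them. The means over 3 times for those 5 ran from -2.13 ± 0.55 for 1415801_at to -1.51 ± 0.12 for 1437992_x_at, with 1415800_at at -1.85 ± 0.23, 1438945_x_at at -1.88 ± 0.33 and 1438650_x_at at -1.52 ± 0.49. Of all features, 19% were lower without overlap between the 4 p53-/- Dnmt1-/- and the 3 p53-/- arrays. The sixth, 1438973_x_at, had signals of 122.2, 71.6, 84.7 and 51.9 in p53-/- Dnmt1-/- cells and 123.1, 126.6 and 86.5 in p53-/- cells, and these overlapped. Its difference was -0.26 ± 0.41, near 0 untreated (-0.01) and at 48 h (-0.03). Across the 7 arrays the first 5 correlated with each other at r of 0.964 to 0.993, and the sixth with them at 0.489 to 0.632. These r values describe probe sets that share the same arrays. The suffix x marks a probe set whose probes can match other transcripts, and 4 of the 6 carry it, so the suffix does not set the discordant one apart.

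**Figure D2:**
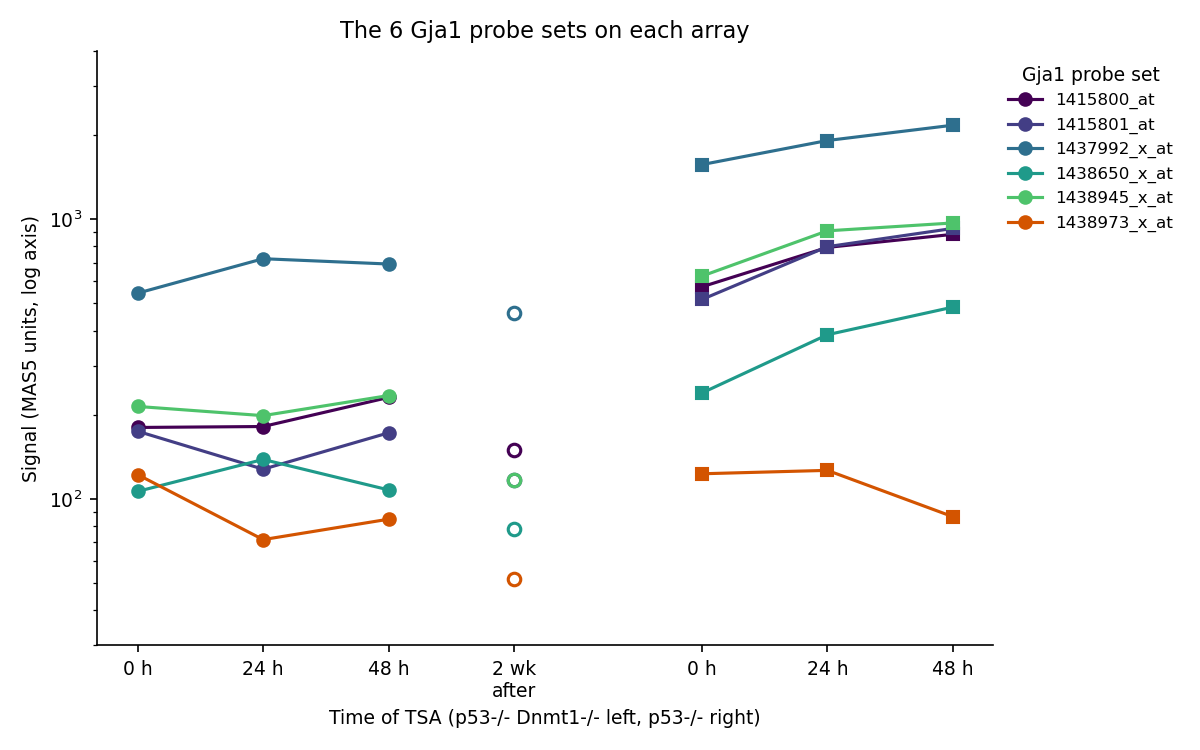
Signal of the 6 Gja1 probe sets on each array, on a log axis, with p53-/- Dnmt1-/- arrays left (open circles 2 weeks after TSA removal) and p53-/- arrays right. For 5 probe sets all p53-/- Dnmt1-/- points lie below all p53-/- points, and 1438973_x_at (orange) overlaps; the circles of 1415801_at (116.9) and 1438945_x_at (117.0) coincide after removal.

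Gjc1 had signals of 54.9, 40.8 and 58.5 at 0, 24 and 48 h and 85.8 after TSA removal in p53-/- Dnmt1-/- cells, against 116.1, 99.6 and 122.0 at 0, 24 and 48 h in p53-/- cells. The genotypes did not overlap, although the array after removal came closest, and 19% of all features were lower without overlap between the same arrays. The difference was -0.99 ± 0.09 (SD over 3 times), with -0.94, -1.09 and -0.93 at the single times, a smaller spread than for Gjb2, Gjb5 or the Gja1 probe sets.

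Both of these connexins lay lower in the genotype where the fibroblast markers lay lower, with 11 of 14 markers called lower. Among the p53-/- Dnmt1-/- arrays the highest Gjc1 signal, 85.8 after TSA removal, was on the array with the lowest fibroblast sum, 9436. The 14 markers were mixed on that array. At least 2-fold from untreated, 4 were lower and 1 was higher, Prrx1 by 1.22. The part of cell makeup in the Gja1 and Gjc1 differences was not tested. Cardiac and smooth muscle markers were included because Gjc1 is a heart and smooth muscle connexin. Of 8 listed, 4 passed the filter. Limma called 2 higher, 1 lower and 1 neither, beside 19.4% higher and 19.4% lower of all features. The 8 markers had summed signals of 3024 to 4815 in p53-/- Dnmt1-/- cells and 4413 to 5384 in p53-/- cells. The 1 lower was Acta2, with 2738.6, 3587.3, 3559.9 and 2547.8 in p53-/- Dnmt1-/- cells against 4495.4, 4281.7 and 3864.3 in p53-/- cells. Cnn1, called neither, had 390.8, 693.6, 812.3 and 347.1 against 843.7, 585.6 and 501.2. The 2 higher were the sarcomere genes Actc1, with signals of 81.5, 344.7, 330.9 and 53.1 in p53-/- Dnmt1-/- cells against 20.4, 22.4 and 18.0 in p53-/- cells, and Tnnt2, with 41.4, 125.4, 32.7 and 56.7 against 0.8, 0.9 and 0.2. Both passed the filter only through p53-/- Dnmt1-/- arrays, so they had to differ. The heart myosins Myh6 and Myh7 were below 11.4 on every array.

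Gjb2 had signals of 28.3, 18.1 and 22.9 at 0, 24 and 48 h and 22.1 after TSA removal in p53-/- Dnmt1-/- cells, against 285.1, 48.8 and 21.8 at 0, 24 and 48 h in p53-/- cells. The untreated p53-/- array stood apart, while the p53-/- array at 48 h lay within the range of the p53-/- Dnmt1-/- arrays. The genotype difference was -2.90 untreated, -1.03 at 24 h and 0.05 at 48 h, with a mean of -1.29 ± 1.49. The spread over the 3 times exceeded the mean.

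Gjb5 had signals of 72.2, 149.3 and 82.8 at 0, 24 and 48 h and 3.7 after TSA removal in p53-/- Dnmt1-/- cells, against 3.9, 5.6 and 3.1 at 0, 24 and 48 h in p53-/- cells. The array after removal lay within the p53-/- range. Gjb5 passed the filter only through p53-/- Dnmt1-/- arrays, so a difference between some arrays was fixed by the filter. The difference was 2.80 ± 0.40 (SD over 3 times), with 2.45, 3.24 and 2.70 at the single times. All p53-/- signals were below the offset, so this value depends on the offset, and it was 1.53 with the offset at 45.6 and 4.25 with an offset of 1.

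The epithelial marker sums were higher on all 4 p53-/- Dnmt1-/- arrays than in p53-/- cells, including the array where Gjb5 was at 3.7. Single markers varied. On that array Krt7 was at 24.9 and Epcam at 3.5, while Krt8 was at 2072.9 and Upk3b at 2337.1. The 9 simple epithelial and mesothelial markers summed to 12619 untreated, 17031 at 24 h, 15414 at 48 h and 9706 after TSA removal. Of 8 stratified epithelial markers with a probe set, only Krt14 and Krt10 passed the filter. Krt14 alone was called higher, beside 19.4% of all features, and it passed only through p53-/- Dnmt1-/- arrays, so it had to differ. The summed signals were 1263 to 2320 in p53-/- Dnmt1-/- cells, nearly all from Krt14, against 86.8 to 130.8 in p53-/- cells. The basal regulator Trp63 reached 11.9 in p53-/- Dnmt1-/- cells and 14.3 in p53-/- cells, and the keratin Krt5 14.5 and 24.3, so these defining markers were below the filter in both genotypes. The part of epithelial cells in the Gjb5 signal was not tested.

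**Figure D3:**
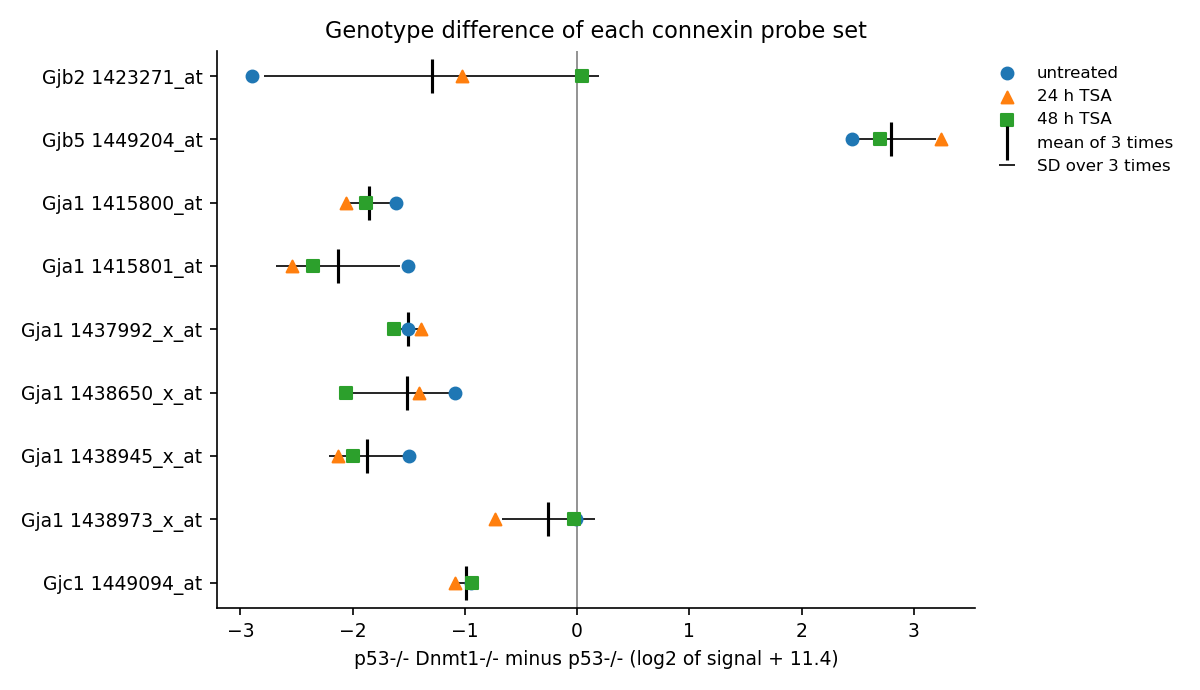
Difference p53-/- Dnmt1-/- minus p53-/- on the log2(signal + 11.4) scale for the 9 connexin probe sets, with a symbol for each of 3 times, a bar for their mean and a line for the SD. Gjb5 lies right of 0 at all 3 times, Gjc1 and the 6 Gja1 probe sets lie left of 0, with 1438973_x_at at -0.01 untreated and -0.03 at 48 h, and Gjb2 runs from -2.90 untreated to 0.05 at 48 h.

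**Figure D4:**
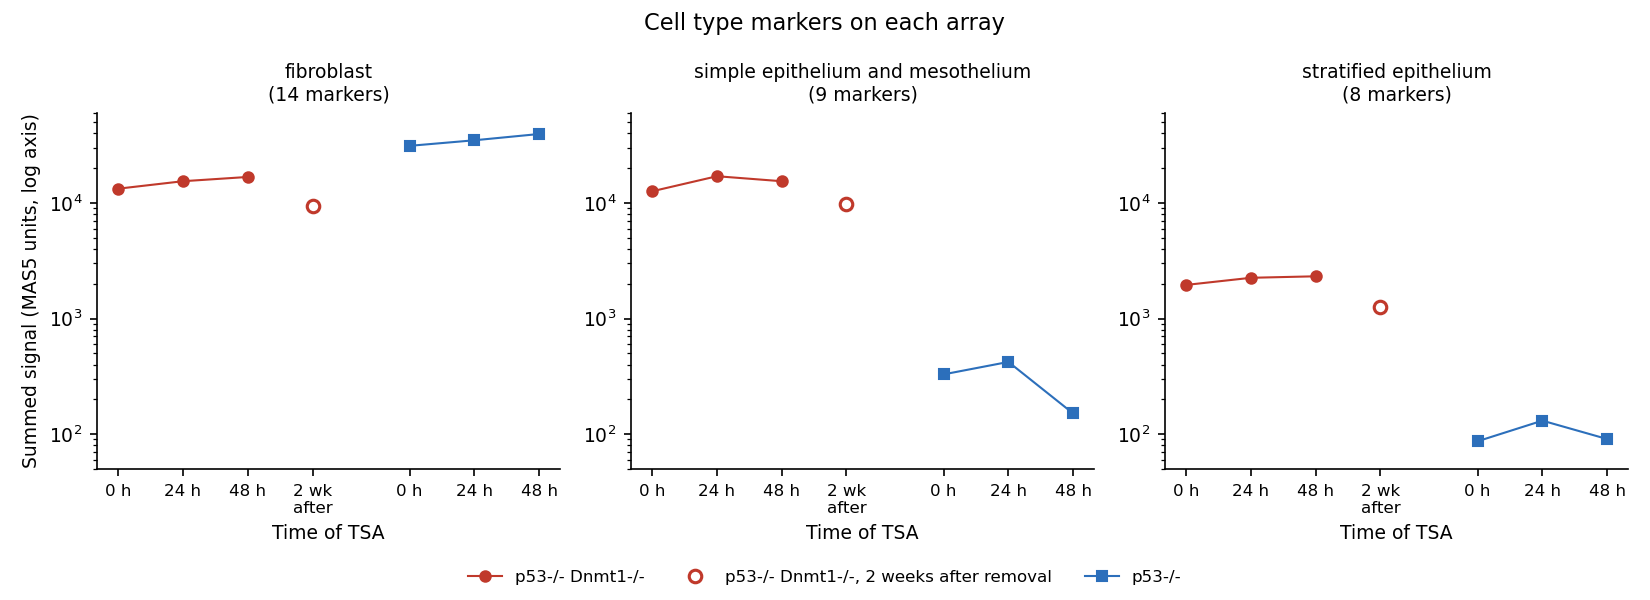
Summed signal of fibroblast, simple epithelial and mesothelial, and stratified epithelial markers on each array, on a log axis, with p53-/- Dnmt1-/- arrays (red) left of p53-/- arrays (blue). The fibroblast sums are lower and the epithelial sums higher on all 4 p53-/- Dnmt1-/- arrays.

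The connexins differed from each other in their values with TSA, and Gjb2 in p53-/- cells moved furthest. The size rule for single arrays asked for 2-fold or more, the same way at 24 h and at 48 h. In p53-/- cells it was met by 1 connexin, Gjb2, which was lower, and 1.54% of all features were higher and 0.99% lower by it. In p53-/- Dnmt1-/- cells 0 of 4 met it, with 1.87% of all features higher and 0.341% lower. Limma, with 24 h and 48 h pooled, called 0 features in either genotype and 0 for the difference of the responses, with 799, 736 and 291 features at an unadjusted p under 0.05 for p53-/- cells, p53-/- Dnmt1-/- cells and the difference.

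The Gjb2 signal in p53-/- cells was 5.84 times lower at 24 h and 13.1 times lower at 48 h than in untreated cells, and the log2 differences were -2.30 and -3.16. Their mean of -2.73 was the lowest of all 9390 features. That rank is a description only. Gjb2 was chosen with these values known and passed the filter only through p53-/- arrays, and the mean rests on 1 untreated array. In p53-/- Dnmt1-/- cells, where Gjb2 was dim before TSA, the log2 differences were -0.43 at 24 h and -0.21 at 48 h. The response differed between genotypes by 2.41 ± 0.62 (SE of the fit), which rests on 1 untreated array of each genotype.

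Gja1 read higher with TSA in p53-/- cells at both times for 5 of 6 probe sets, by 0.28 at 24 h and 0.46 at 48 h for 1437992_x_at and by up to 0.98 at 48 h for 1438650_x_at. None of these reached 2-fold at both times. In p53-/- Dnmt1-/- cells the probe sets were mixed. For 1437992_x_at the differences were 0.40 and 0.34, for 1415800_at 0.01 and 0.34, for 1438650_x_at 0.35 and 0.02, for 1438945_x_at -0.10 and 0.12, and for 1415801_at -0.42 and -0.02. The discordant probe set 1438973_x_at gave -0.69 and -0.48 there, and 0.04 and -0.46 in p53-/- cells. The probe set chosen decides whether Gja1 reads higher or lower with TSA in p53-/- Dnmt1-/- cells.

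Gjb5 was highest of all arrays in p53-/- Dnmt1-/- cells at 24 h of TSA, at 2.07 times the untreated signal, and at 1.15 times at 48 h. The log2 differences were 0.94 and 0.17. That array also had the highest 18S ribosomal RNA control signal, 2549.1 at the 3′ end against 688.1 on the untreated array of the genotype, and the highest simple epithelial and mesothelial sum, 17031 against 12619. Within that list the log2 differences at 24 h ran from -0.55 for Krt7 to 2.63 for Epcam, with 7 of 9 above 0. The part of these in the Gjb5 value was not tested. In p53-/- cells Gjb5 remained dim with TSA, between 3.1 and 5.6. Gjc1 differed with TSA by -0.34 and 0.08 in p53-/- Dnmt1-/- cells and by -0.20 and 0.07 in p53-/- cells at 24 h and 48 h, with both signs in each genotype.

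**Figure D5:**
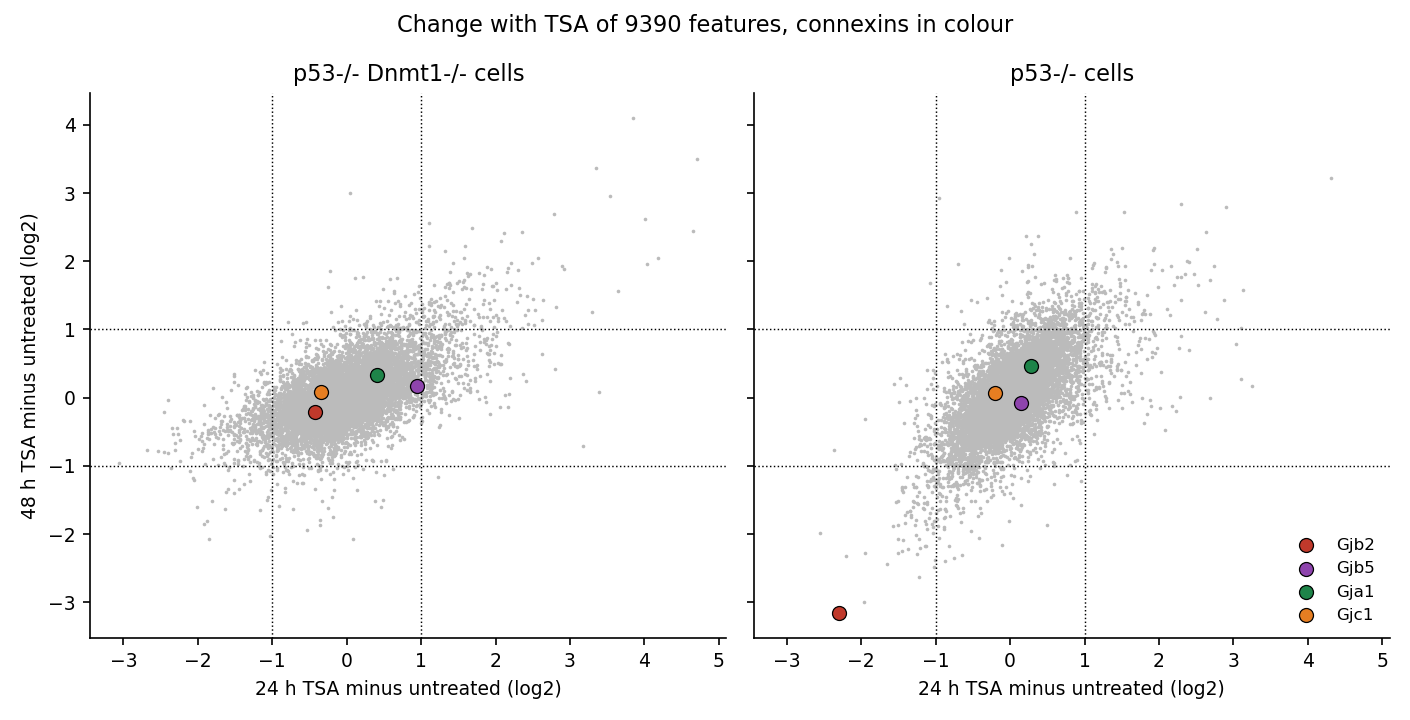
Log2 difference of TSA from untreated at 24 h (x axis) and 48 h (y axis) for 9390 features (grey) and the 4 connexins (colour), in p53-/- Dnmt1-/- cells (left) and p53-/- cells (right). Dotted lines mark 2-fold; Gjb2 in p53-/- cells lies at -2.30 and -3.16, and all other connexin points lie inside 2-fold at both times.

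The array taken 2 weeks after TSA removal was set against the untreated array of the same genotype. The array after removal had the lowest 18S ribosomal RNA control signal of all 7, 93.6 at the 3′ end against 688.1 untreated. Its Gapdh and beta-actin control signals were the highest, 6307.3 and 7904.8 at the 3′ end against 4693.2 and 5421.2 untreated. The part of these in the after-removal values was not tested. At least 2-fold, 1 of 4 connexins was lower, Gjb5, and 0 were higher, where 9.67% of all features were lower and 4.65% higher. Gjb5 had a signal of 3.7 after removal, against 72.2 untreated, a log2 difference of -2.47 that ranked ninth lowest of 9390 features. Against the 24 h and 48 h arrays of TSA it differed by -3.41 and -2.64. The rank is a description only, since Gjb5 was chosen with these values known and passed the filter only through p53-/- Dnmt1-/- arrays. The simple epithelial sum was 9706 after removal against 12619 untreated. Of its 9 markers 2 were at least 2-fold lower after removal, Krt7 by -3.10 and Msln by -1.15, the median of the 9 was -0.29, and Krt8 was at 2073 against 2081. The stratified epithelial sum was 1263 after removal against 1954 untreated.

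Gjc1 was higher after removal than on any other p53-/- Dnmt1-/- array, at 85.8 against 54.9 untreated, a difference of 0.55. Gjb2 was at 22.1 after removal against 28.3 untreated (-0.24). Gja1 was lower after removal on all 6 probe sets, from -0.23 for 1437992_x_at to -1.08 for 1438973_x_at. The fibroblast sum was also lowest on this array, 9436 against 13286 untreated. Each of these values compares 1 array with 1 array and has no replicate check.

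The other connexins gave little signal. Of 16 listed, 9 had a probe set, 10 probe sets in all, and 0 passed the filter. The brightest was Gja4, a connexin of endothelium, with signals of 34.9, 16.9 and 24.0 at 0, 24 and 48 h and 5.8 after removal in p53-/- Dnmt1-/- cells, against 6.3, 20.4 and 13.7 in p53-/- cells. Endothelial markers were also dim, with Tie1 at 1.0 or less on every array and 1 of 6 markers, Kdr, above the filter. Gjb6, whose product pairs with that of Gjb2 in the inner ear, stayed between 2.9 and 9.6. Gja5, Gjb1, Gjd4 and Gja10, connexins of heart conduction, liver, muscle and retina in that order, stayed below 11.4 on every array. Of 3 pannexins, channel proteins that resemble connexins, 1 had a probe set. Panx1 had signals of 57.5, 94.9, 40.5 and 118.0 in p53-/- Dnmt1-/- cells against 43.1, 35.3 and 36.5 in p53-/- cells, a genotype difference of 0.55 ± 0.26 (SE, limma adjusted p = 0.135). Panx1 passed the filter only through p53-/- Dnmt1-/- arrays, so some arrays had to differ.

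Genes of connexin partners, whose products bind connexins or hold junctions together, went both ways between genotypes. Of 14 listed partners 11 passed the filter, and limma called 2 higher, 5 lower and 4 neither, beside 19.4% higher and 19.4% lower of all features, with a median difference of -0.11 beside 0.04 over all features. Ezrin (Ezr), which links membrane proteins to actin, differed by 3.58 ± 0.18 (SE, limma adjusted p = 5.43e-06). E-cadherin (Cdh1), the epithelial adhesion molecule, had signals of 66.6, 75.8, 87.4 and 59.5 in p53-/- Dnmt1-/- cells against 1.0, 9.5 and 7.6 in p53-/- cells. It passed the filter only through p53-/- Dnmt1-/- arrays, so it had to differ. Ccn3, a matricellular protein that binds the tail of Cx43, differed by -2.93 ± 0.22 (limma adjusted p = 3.22e-05). Ccn3 was also the only partner past 2-fold at both times of TSA, with differences of 1.32 and 2.15 in p53-/- Dnmt1-/- cells and 2.29 and 2.85 in p53-/- cells. Its signal was 38.4, 112.8 and 209.9 at 0, 24 and 48 h and 20.1 after removal in p53-/- Dnmt1-/- cells, against 247.4, 1255.5 and 1850.1 in p53-/- cells. The scaffold Tjp1, whose product binds the tail of Cx43, differed by -0.11 ± 0.21 (limma adjusted p = 0.699).

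Of 15 listed kinases and degradation genes that act on connexins 13 passed, with 2 higher, 2 lower and 9 not called between genotypes, beside 19.4% higher and 19.4% lower of all features, and a median of -0.22. The ubiquitin ligase Nedd4, which marks Cx43 for removal, differed by -1.01 ± 0.17 (limma adjusted p = 0.00225). Protein kinase C delta (Prkcd) differed by 0.89 ± 0.18 and casein kinase Csnk1e by 0.86 ± 0.18 (limma adjusted p = 0.00497 and 0.00605). With TSA 0 passed 2-fold at both times in either genotype, and after removal 3 were at least 2-fold lower, Prkce, Prkaca and Hgs, named after their values were seen, by -1.11, -1.02 and -1.05.

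All 12 listed transcription factors tied to connexin genes had a probe set and 9 passed the filter, with 3 higher, 3 lower and 3 not called, beside 19.4% higher and 19.4% lower of all features, and a median of -0.31. Of the 9, 4 passed through the arrays of 1 genotype only and had to differ, so the count is no support: Gata4 and Nkx2-5 through p53-/- Dnmt1-/- arrays, Tfap2b and Tbx5 through p53-/- arrays. The cardiac factor Gata4 had signals of 77.9, 88.0, 137.8 and 42.6 in p53-/- Dnmt1-/- cells against 26.6, 33.9 and 10.5 in p53-/- cells. The AP-2 factor Tfap2b had 2.5, 1.3, 1.2 and 1.1 in p53-/- Dnmt1-/- cells against 40.2, 52.6 and 71.6 in p53-/- cells. The T-box factor Tbx5 ranged between 8.7, after TSA removal, and 32.3 in p53-/- Dnmt1-/- cells, against 58.1 to 105.3 in p53-/- cells. Jun, part of the AP-1 factor whose motif lies in the Gja1 window printed above, differed by -0.59 ± 0.24 (limma adjusted p = 0.0898), and Fos by 0.74 ± 0.24 (adjusted p = 0.0376). With TSA 0 passed 2-fold at both times. After removal Sp1 and Sp3, which bind GC boxes, were higher by 1.90 and 1.65 and Tbx5 was lower by -1.04, all 3 named after their values were seen.

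Likeness over the 7 arrays was measured by Pearson's r of the log2 values among 5684 named genes whose log2 range was at least 1. The arrays share genotype and treatment, so a high r is easily reached, and these are descriptions. Gja1 had 384 genes at r above 0.95. The nearest were Nfatc4 (0.998), Nptn (0.997), the imprinted RNA Meg3 (0.996), Otulinl (0.996) and the collagen Col11a1 (0.995). Gjb5 had 53 such genes, led by Rab15 (0.992), Gpha2 (0.990), Ptprz1 (0.986), Irf1 (0.985) and Spire2 (0.984). Gpha2, a glycoprotein hormone subunit, had signals of 65.8, 171.7, 95.1 and 13.2 at 0, 24 and 48 h and after removal in p53-/- Dnmt1-/- cells, against 10.2, 11.6 and 5.3 in p53-/- cells, so it too was low on the array after removal.

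Gjc1 had 17 genes at r above 0.95, the nearest being Ints6l (0.978), Gtf3c4 (0.978), AW209491 (0.976), Tmem123 (0.970) and the histone variant gene Macroh2a2 (0.966). Gjb2 had 0, and its nearest genes were Fndc4 (0.927), P3h1 (0.919), Cth (0.910), Hhat (0.908) and Fbxo4 (0.897). Cth, an enzyme of cysteine synthesis, had signals of 33.4, 26.5, 29.2 and 44.9 in p53-/- Dnmt1-/- cells against 130.9, 65.1 and 51.8 in p53-/- cells, a smaller change with TSA than that of Gjb2. Spearman's rho for the 5 genes nearest to Gjb2 was 0.613 to 0.821, below their r. Among the connexins themselves r was -0.958 for Gjb5 and Gjc1, 0.723 for Gja1 and Gjc1, and between -0.560 and 0.521 for the other 4 pairs.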

How the data were processed

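RNA of 7 groups of mouse embryonic fibroblasts, 1 array each, was measured on Affymetrix arrays; TriZol purification and Affymetrix labelling are named per the labels' protocols. The deposited values were linear signal intensities made by the authors with MAS5, per the submitters' processing notes. No version or scaling target is given in the sources used here. These deposited intensity values had a trimmed mean of 150.1 on every array after rounding. Median signals ran from 41.9 to 48.8. Precision is limited by having 7 arrays.

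Probe sets were named through GEO's platform annotation, which listed 21084 of 22690, 20393 with 1 symbol and 691 with several, and left 1606 unlisted. Of these symbols 20364 were updated through Entrez identifiers to RefSeq names of assembly GRCm38.p6. Each gene took its brightest probe set in mean log2, and 64 controls were dropped. Values were analysed as log2(signal + 11.4), and 9390 features passed the filter, 8298 named and 1092 unnamed. Tests used limma 3.58.1 (R 4.3.3), with eBayes given an intensity trend and Benjamini-Hochberg adjusted p under 0.05 across features. One fit had genotype and time as terms over 6 arrays, and another took 24 h and 48 h as one group over 7 arrays. In the first fit the error is how far the genotype difference changes between times. In the second it is the spread between the 24 h and 48 h arrays of a genotype. Both can hold changes with time as well as technical variation. The p-values do not reflect how repeated arrays or cultures vary.

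The members and lists were chosen with earlier results of these data known, so members carry no p-value. Beside the members, the text names each pannexin or other connexin that passed the filter, the 3 called genes with the largest genotype difference of each list, and the 5 genes most like each member. Named outside that rule, after their values were seen, were connexins below the filter, Tjp1, Jun, Fos, Nkx2-5, the genes past 2-fold after TSA removal, and single marker genes. Alternatives were the offset, quantile normalization, no filter, the mean of a gene's probe sets, no intensity trend, single times left out or used alone and, chosen after seeing the data, median centring.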

Additional observations from a re-analysis of the deposited data

Results flagged for a closer look

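Searched were the 9 probe sets of the 4 genes, 10 of other connexins and 1 of a pannexin. In 3 of these probe sets both TSA arrays lay on one side of untreated in one genotype and on the opposite side in the other. None of these differences was tested, and 15.6% of all features that passed the filter showed this pattern. For Gja1 the probe set 1415801_at averaged -0.22 in p53-/- Dnmt1-/- cells and 0.72 in p53-/- cells over both times, a difference of -0.94 on the log2 scale. Its other 5 probe sets did not show opposite signs at both times. For Gja4 (1416255_at) the means were -0.55 and 0.67, a difference of -1.22. For Gja3 (1422339_at), a lens connexin, they were 0.46 and -0.74, a difference of 1.20. Gja3 and Gja4 were below the filter on every array.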

How the results depend on the processing

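The genotypes were paired by time in the genotype fit, which carried time as a term, and no pairing by replicate number was made, since each group held 1 array and the labels number no replicates. Of 140 alternative values of the connexins 125 moved by less than the spread used for them (SD over 3 times, or the residual SD of the 7-array fit), 15 moved by more, and 0 of those past 2-fold changed sign. With the offset at 45.6 or at 1, the genotype difference became 1.53 or 4.25 for Gjb5 and -0.71 or -1.13 for Gjc1, and the after-removal difference of Gjb5 -1.26 or -3.96. With the offset at 45.6 the TSA difference of Gjb2 in p53-/- cells was -2.05 and its difference between genotypes 1.89. At 24 h alone these 2 values were -2.30 and 1.87, and at 48 h alone -3.16 and 2.95. With the mean of its 6 probe sets, Gja1 with TSA in p53-/- Dnmt1-/- cells was -0.011 in place of 0.37, its difference between genotypes -0.48 and its after-removal value -0.55. Median centring, added after seeing the data, moved no genotype difference of a connexin beyond its spread. Without the 48 h arrays limma called 1112 features higher and 1134 lower between genotypes, in place of 1826 and 1817, and 4 of the listed other gap junction genes higher in place of 7; the smaller number of arrays is part of that setting. The pooled fit called 1 feature with TSA in p53-/- Dnmt1-/- cells, in place of 0, with the offset at 45.6 or without the trend, and 0 after removal, in place of 1, without the filter, with the mean of probe sets or without the trend. Features at least 2-fold higher and lower with TSA in p53-/- cells were 45 and 41 with the offset at 45.6, 253 and 145 at 1, 317 and 174 at 24 h alone and 446 and 297 at 48 h alone, in place of 145 and 93. In p53-/- Dnmt1-/- cells they were 66 and 9, 280 and 69, 565 and 479, and 276 and 94 in the same order, in place of 176 and 32, with 61 lower without the filter. After removal they were 209 and 315 with the offset at 45.6, in place of 437 and 908, with 1370 lower without the filter. The cause of the other shifts was not tested. Signal over background limits Gjb5 in p53-/- cells and after TSA removal, and every connexin outside the 4 genes described. Gjb2 is limited in the same way, at 18.1 to 28.3 in p53-/- Dnmt1-/- cells and 21.8 at 48 h in p53-/- cells.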
